A study of Mus musculus with 5 samples.

Results

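Carriers of the mitochondrial SLC25 family were measured in atria that lacked the transcription factor Nkx2-5 and in control atria. The family was taken as every protein-coding gene of the deposited count table whose symbol is Slc25a followed by a number, which gave 44 of its 40624 genes. Of these, 41 had enough counts to be tested. The atria came from C57BL/6 mice at postnatal day 1, and poly(A) RNA was sequenced. The 2 mutant libraries, numbered 5 and 7, carried SLN-Cre and an Nkx2-5 gene with both alleles floxed. The 3 control libraries, numbered 2, 4 and 6, carried the same SLN-Cre with 1 floxed and 1 wild-type allele of Nkx2-5. The control atria thus also expressed the recombinase and, where it acts, keep only the wild-type allele. Cre was driven from sarcolipin (Sln), a gene of atrial muscle cells, so cells in which Sln is silent are expected to keep Nkx2-5. The sources used here do not state whether each library came from a separate animal or from pooled animals. A p-value here therefore speaks of the spread among these 5 libraries, which may in part be technical.

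SLC25 proteins sit, with few exceptions, in the inner mitochondrial membrane, which is otherwise closed to most ions and metabolites. They exchange ADP for ATP, bring in phosphate, acylcarnitines, amino acids, iron and cofactors, and pass carboxylic and amino acids between matrix and cytosol for the shuttles that carry the electrons of NADH inwards. Heart muscle depends on oxidative phosphorylation, and around birth it moves from lactate and glucose towards fatty acids as its main fuel.

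The deletion was visible in both mutant libraries. Levels are given in CPM, the count of a gene per 1000000 gene counts of its library after TMM scaling. Nkx2-5 had 5.79 and 5.21 CPM in the mutants, against 76.8, 72.1 and 71.3 CPM in the controls, a log2 fold change of -3.74 ± 0.09 (SE; adjusted p = 7.03e-07, edgeR's quasi-likelihood test). All fold changes below are mutant over control from the same fit over 17835 genes, with Benjamini-Hochberg adjusted p-values over all of these and a threshold of 0.05. Gene counts summed to 78841494 and 69648013 in the mutants and to between 58501214 and 60899334 in the controls. The labelled tissue was checked against 14 atrial muscle genes, of which Bmp10 rose, Nppa, Pam and Gja5 fell and 10 did not pass. Their summed level was 22526 to 23845 CPM in the mutants and 30237 to 31953 CPM in the controls. Of these Myl7, an atrial myosin light chain, stood at 9949 CPM or more in all 5 libraries, and Nppa, the atrial natriuretic peptide, at 849 and 1194 CPM in the mutants against 5281 to 6769 CPM in the controls. The 2 mutants differed from each other more than the controls did among themselves. A chi-square of their counts over genes was 85.1 per degree of freedom, against 19.9 to 33.3 for pairs of controls and 80.1 to 122 for a mutant with a control. Both groups held male and female tissue, since Ddx3y, a Y-linked gene, and Xist each marked at least 1 library of each group. Ddx3y had 75.2 CPM in mutant 5 and 79.6 CPM in control 4, and 0.0487 CPM or less in mutant 7 and controls 2 and 6. The 2 mutant libraries thus came from different animals, and control 4 from other animals than controls 2 and 6. In bulk tissue, fewer cells of a type and less RNA per cell cannot be told apart. Marker lists of several cell types also differed between the groups. Over all tested genes 3.02% rose and 3.57% fell, the shares to set beside the counts of each list here and below. Among 20 genes of the G2 and M phases of the cell cycle, 7 rose and 0 fell, among 8 epicardial genes 0 rose and 7 fell, and among 10 fibroblast genes 0 rose and 3 fell. The summed level of 12 genes of all heart muscle cells was 48778 to 52594 CPM in the mutants and 43396 to 47136 CPM in the controls. Of these 12 genes Ldb3 rose, 0 fell and 11 did not pass, with 8 positive and 4 negative log2 fold changes. Its most abundant genes, Actc1 and Myh6, were among those that did not pass (adjusted p = 0.448 and 0.161, edgeR). The summed level of 8 smooth muscle genes was 3163 to 3548 CPM in the mutants and 1758 to 2004 CPM in the controls. Of these 8 genes Acta2 and Des rose, 0 fell and 6 did not pass. Acta2 had a mean of 1469 CPM in the mutants and 411 CPM in the controls, and Des 1218 and 958 CPM. The summed level of the fibroblast genes was 10123 to 11395 CPM in the mutants and 12160 to 13467 CPM in the controls. Of 10 endothelial and of 9 macrophage and leukocyte genes 1 each rose and 0 fell. Of 14 skeletal muscle genes 1 rose and 3 fell, and of 9 neuronal and glial genes 0 passed. Of 8 ventricular genes 2, Hey2 and Lbh, rose and 0 fell. That list was mixed, with 4 positive and 4 negative log2 fold changes and a median of -0.15. Both mutants lay above all controls in 2 ventricular genes and below all controls in 2. Of all tested genes, 18.6% had both mutants above all controls and 19.2% had them below. The part of these shifts in the results below was not tested.

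Few carriers changed. Slc25a13 and Slc25a34 rose in the mutants, 0 of the 41 tested members fell, and 39 did not pass the test. Over all tested genes 6.58% passed, 3.02% higher and 3.57% lower, so the members' count of 2 in 41 lay near the background. Before adjustment, 10 of the 41 members had p under 0.05 in edgeR, and so did 3705 of all 17835 tested genes. DESeq2 called 4 members higher and 0 lower, where it called 11.9% of all genes with an adjusted p. The fold changes of the family were small. Their median was 0.08 on the log2 scale, against 0.007 over all tested genes, and 34 of 41 (82.9%) lay within 0.3 of 0, against 72.2% of all genes. The 95% interval of the log2 fold change lay wholly within 0.5 of 0 for 32 of the 39 members that did not pass. The same held for 9351 of all 16661 genes that did not pass. Members were measured with a smaller SE, at a median of 0.084 against 0.115 over all tested genes, and no match for SE was made. The sign was positive in 29 of 41 members (70.7%), against 51.3% of all genes. Every mutant library lay above every control library in 14 members and below in 2, Slc25a14 and Slc25a31. Of all tested genes, 37.9% had such groups without overlap, 18.6% with the mutants higher and 19.2% with the mutants lower. These counts describe the members and carry no test.

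**Figure D1:**
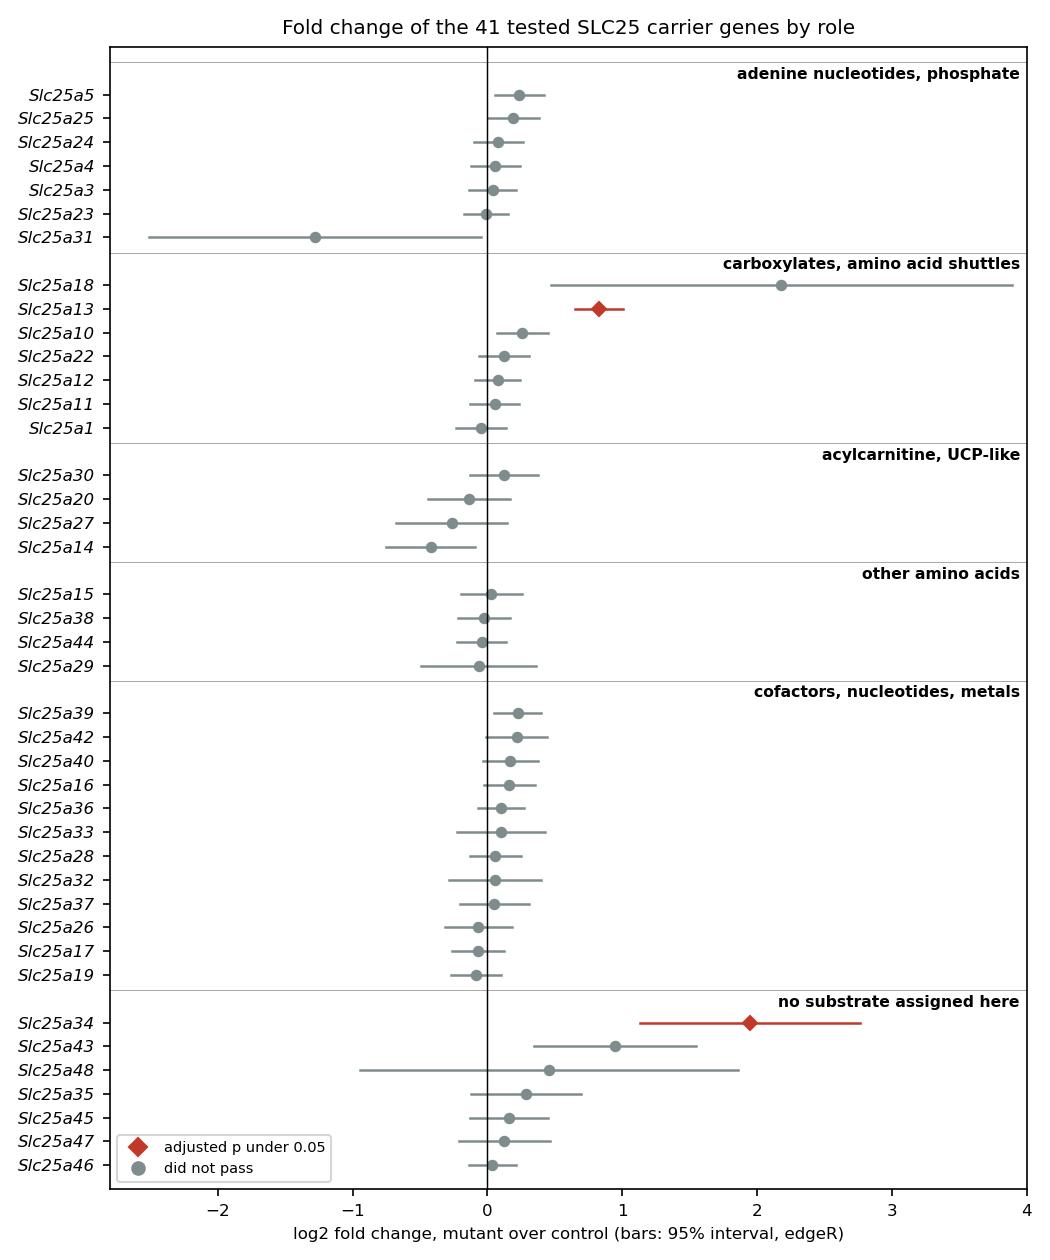
Log2 fold change, mutant over control, of the 41 tested SLC25 members, grouped by role. Points are estimates of the fit over all genes and bars are 95% intervals. Red diamonds mark the 2 members past an adjusted p of 0.05 in edgeR, Slc25a13 and Slc25a34, and grey circles mark the others.

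The family as a whole took up a similar share of the transcriptome in both groups. Summed over the 44 members, levels were 6783 and 6368 CPM in the mutants, against 6400, 6340 and 5929 CPM in the controls, or between 0.599% and 0.671% of gene counts in any library. The groups overlapped. Levels of different members were compared per kilobase of transcript. By the gene length listed in the deposited table, control levels were at least 100 CPM per kb in 3 members, 10 to 100 in 8, 1 to 10 in 25 and under 1 in 8. The listed length is more than 1.5 times the longest coding transcript in 19 of 44 members and 4.906 times for Slc25a3, so levels are also given per kb of that transcript, a choice made after seeing the data. On that scale Slc25a4, the ADP/ATP carrier of heart and muscle, reached 1778 ± 63.5 CPM per kb in the mutants and 1706 ± 87.9 in the controls (SD, n = 2 and n = 3). It held 49.9% of the family's summed level in the mutants and 50.8% in the controls. Slc25a3, the phosphate carrier, followed at 698 ± 25.8 CPM per kb in the mutants and 679 ± 31.1 in the controls. Slc25a5, the ADP/ATP carrier of most tissues, came after it at 545 ± 39.7 CPM per kb in the mutants and 462 ± 21.3 in the controls. These 3 levels were separated by more than their spread in each group. With the listed length, Slc25a5 ranked above Slc25a3. The authors' deposited RPKM, pooled to 1 value a group, scales with that listed length, so its identical order is no separate evidence. RPKM was 308.4 in the mutants and 264.3 in the controls for Slc25a5, and 130.4 in the mutants and 128.4 in the controls for Slc25a3. Slc25a11 at 121 CPM per kb in the mutants and 116 in the controls, Slc25a39 at 108 in the mutants and 92.6 in the controls, and Slc25a20 at 33.8 in the mutants and 37.1 in the controls came next. At the other end, Slc25a41 had 0 counts in both mutants and in controls 2 and 4, and 2 counts in control 6. A count of 3, the limit that a count of 0 allows, is 0.0384 to 0.0509 CPM in these libraries. Such limits cover counting error only.

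**Figure D2:**
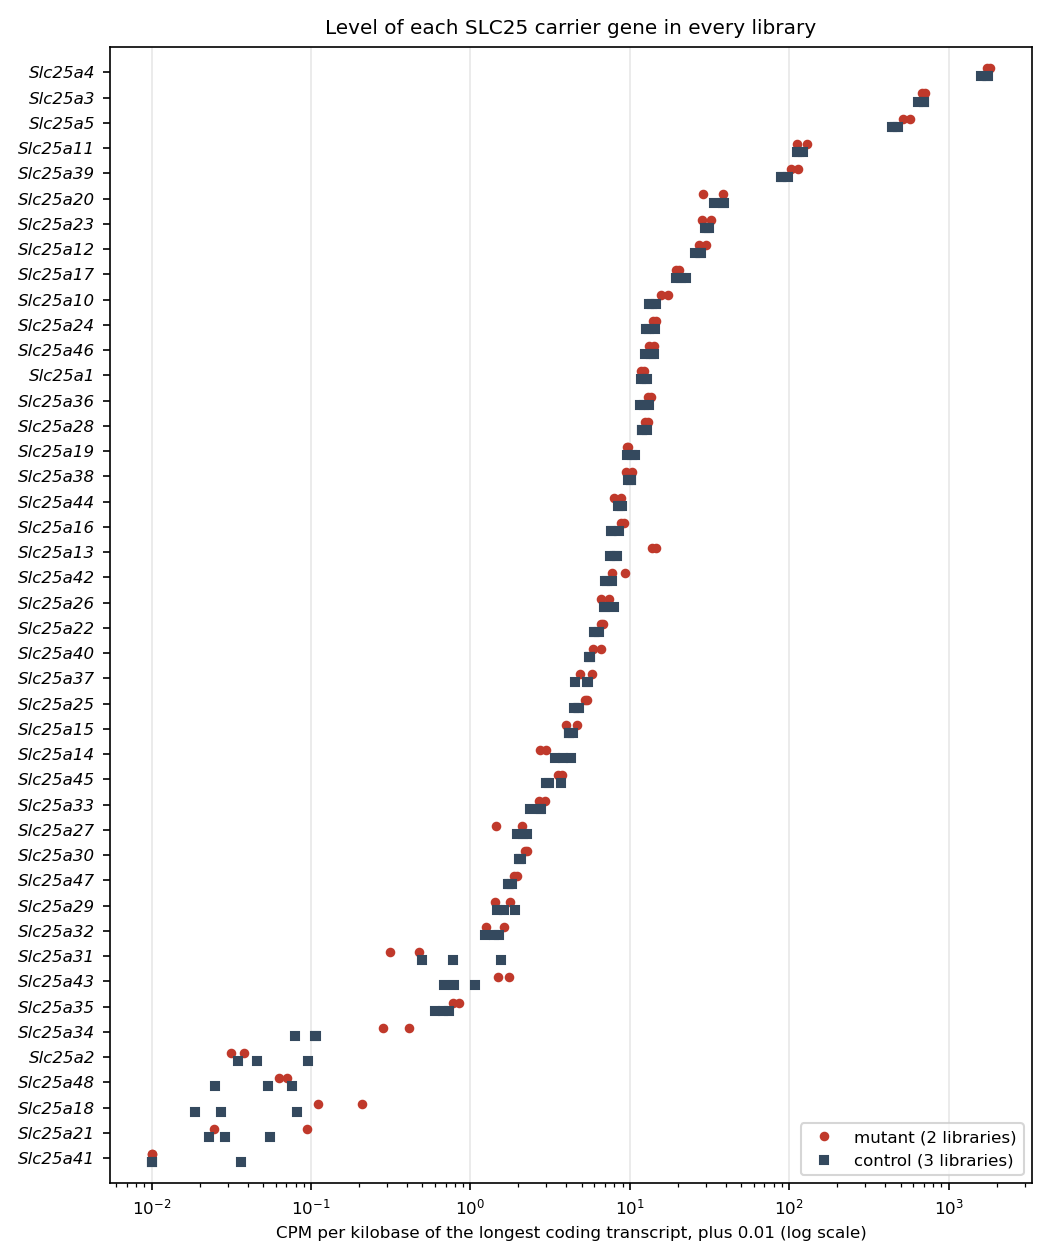
Level of each of the 44 SLC25 members in every library, in CPM per kb of the longest protein-coding transcript plus 0.01, on a log axis. Members run from the highest control mean to the lowest; Slc25a4, Slc25a3 and Slc25a5 stand apart at the top, at 462 CPM per kb or more in the mean of each group.

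The member with the smallest adjusted p was Slc25a13, also called citrin. It exchanges aspartate of the matrix for glutamate and a proton, a step of the malate-aspartate shuttle, and is known mainly from liver, where the urea cycle draws on it. Its partner Slc25a12, or aralar, does the same work and is known as the form of heart, muscle and brain. Slc25a13 (ENSMUSG00000015112) lies on the minus strand of chromosome 6, at 6:5992146-6167010 in mm9, the build of the deposited table, and Slc25a12 (ENSMUSG00000027010) on the minus strand of chromosome 2, at 2:71113212-71205581. Slc25a34 (ENSMUSG00000040740), the other member that rose, lies on the minus strand of chromosome 4, at 4:141176327-141179611, and its substrate was not assigned here.

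Promoter windows of RefSeq on GRCm38.p6, the 250 bases before the transcription start on the gene's own strand, are shown 5′ to 3′ for the 2 members that rose and for Slc25a12, which shares the function of the first and did not pass the test. Capitals mark AAGTG, the core of the sequence that Nkx2-5 is known to bind, searched on both strands. The windows are chr6:6217174-6217423 for Slc25a13, chr4:141623835-141624084 for Slc25a34 and chr2:71367756-71368005 for Slc25a12, all on the minus strand.
Slc25a13: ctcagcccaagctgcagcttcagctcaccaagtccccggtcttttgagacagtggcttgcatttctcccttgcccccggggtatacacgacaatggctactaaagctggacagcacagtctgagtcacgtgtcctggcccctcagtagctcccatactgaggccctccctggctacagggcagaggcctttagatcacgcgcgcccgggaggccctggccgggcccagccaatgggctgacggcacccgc
Slc25a34: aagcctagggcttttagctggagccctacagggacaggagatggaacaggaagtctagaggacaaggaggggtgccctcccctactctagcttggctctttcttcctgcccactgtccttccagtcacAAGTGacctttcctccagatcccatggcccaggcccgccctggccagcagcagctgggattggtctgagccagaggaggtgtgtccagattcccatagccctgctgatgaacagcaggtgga
Slc25a12: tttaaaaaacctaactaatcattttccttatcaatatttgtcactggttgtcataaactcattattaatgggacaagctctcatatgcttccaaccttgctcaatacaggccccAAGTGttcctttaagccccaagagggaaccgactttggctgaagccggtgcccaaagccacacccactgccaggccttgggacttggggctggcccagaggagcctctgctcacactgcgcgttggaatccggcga

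The Slc25a13 window has a GC content of 62.8% and holds no AAGTG. The Slc25a34 window, with 58.4% GC, holds 1 at 122 to 118 bases upstream of the start, and the Slc25a12 window, with 49.6% GC, holds 1 at 136 to 132 bases. The longer motif TNAAGTG, which contains AAGTG, is in none of the 3. Of 32851 windows of the same length for all genes, 40.71% hold AAGTG, against 9 of the 43 windows of SLC25 members (20.93%). TNAAGTG is in 10.06% of all windows and in 2 of the 43 (4.65%). RefSeq gave windows for 34 of the 44 members, some with several starts. The median GC content was 56.8% for member windows and 52.4% for all. A match is a description of letters and not a binding site.

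Slc25a13 had 45.2 and 43.1 CPM in the mutants, against 25.8, 23.5 and 25.2 CPM in the controls. The libraries of each group lay close together and the groups were far from overlapping. The log2 fold change was 0.83 ± 0.08 (SE; 95% interval 0.65 to 1.01; adjusted p = 9.3e-04, edgeR), a mean of 1.78 times the control level. Slc25a12 had 190 and 173 CPM in the mutants, against 178, 175 and 163 CPM in the controls. Its groups overlapped, with a log2 fold change of 0.08 ± 0.07 (SE; adjusted p = 0.622). The ratio within each library does not depend on scaling between libraries. There were 23.8 and 24.95 counts of Slc25a13 per 100 of Slc25a12 in the mutants, against 14.5, 13.5 and 15.5 in the controls. The mean log2 ratio differed by 0.75, with no overlap, and stayed between 0.70 and 0.80 without any 1 library. An exact two-sided permutation test gave p = 0.1, the smallest that 2 against 3 libraries allow, and 0.4 after adjustment over the 8 carrier pairs compared. By length of the longest transcript, Slc25a13 made up 33.1 ± 0.8% of the pair's summed level in the mutants and 22.7 ± 1.2% in the controls (SD, n = 2 and n = 3). That summed level was 42.7 ± 2.4 CPM per kb in the mutants and 35.1 ± 1.3 CPM per kb in the controls. Among all 44 members, Slc25a13 held rank 12 in the mutants and rank 20 in the controls on that scale, and rank 10 in the mutants and rank 14 in the controls by listed length.

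The genes beside Slc25a13 gave no call. Dync1i1, which encodes a dynein chain and lies 14.7 kb away, had a log2 fold change of -0.36 ± 0.21 (SE; adjusted p = 0.390, edgeR), and Shfm1, 341 kb away on the other side, 0.00 ± 0.06 (SE; adjusted p = 0.994). Slc25a13 shared no stretch of 50 or more bases at 95% identity with the transcripts of other genes, and no exon with a gene of either strand, nor did Slc25a34.

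Slc25a34 was far less abundant. It had 84 and 50 counts in the mutants, against 15, 11 and 16 counts in the controls, which is 1.08 and 0.732 CPM in the mutants and 0.254, 0.185 and 0.260 CPM in the controls. The lowest mutant library lay above the highest control. The log2 fold change was 1.95 ± 0.36 (SE; 95% interval 1.13 to 2.77; adjusted p = 0.016, edgeR). The call rests on few counts and was lost without control 2 (adjusted p = 0.052), without control 4 (0.065) and without mutant 5 (0.072), with log2 fold changes of 1.64 to 2.19 over the libraries left out. Its close neighbours Tmem82, 2.4 kb away, and Plekhm2, 2.9 kb away, had log2 fold changes of -0.38 ± 0.54 and -0.08 ± 0.07 (SE), neither past the test.

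**Figure D3:**
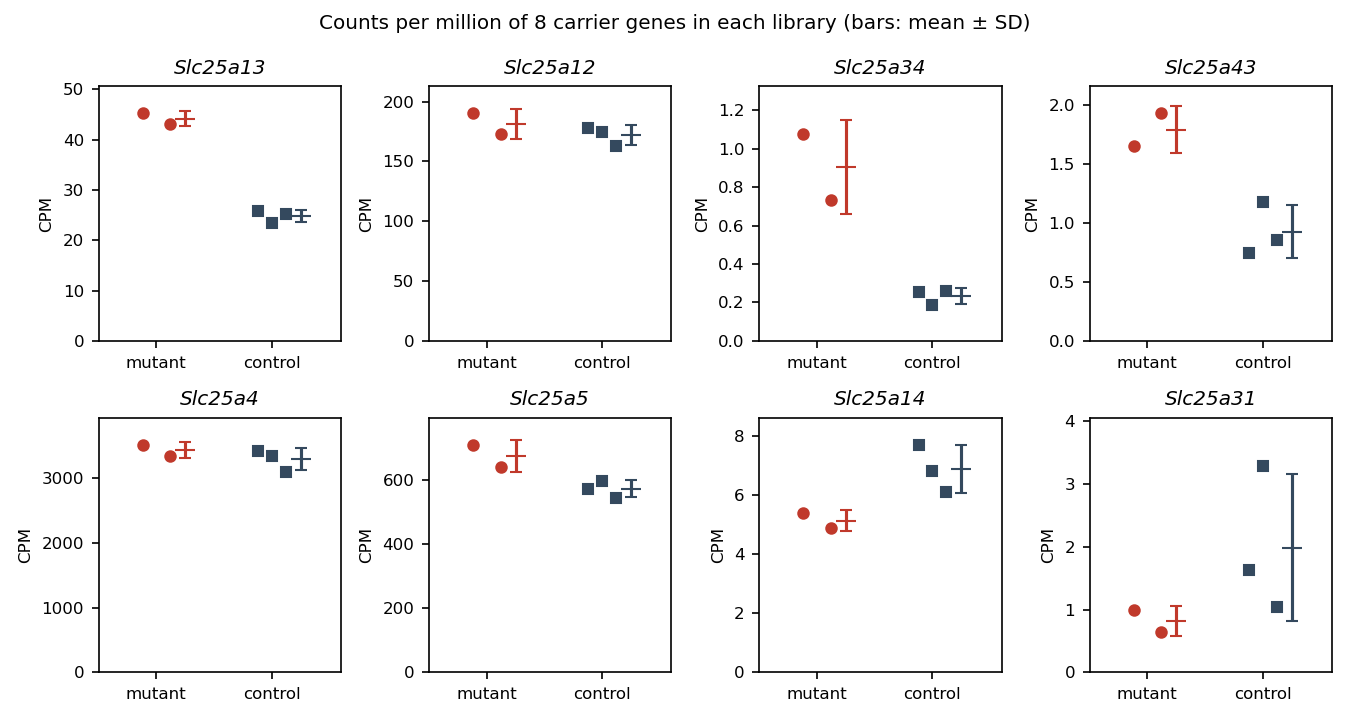
Level in CPM of SLC25 members in the 2 mutant and 3 control libraries, 1 panel per gene with its own axis from 0. Points are libraries and bars are group means with SD; Slc25a13, at 43.1 to 45.2 CPM in the mutants and 23.5 to 25.8 in the controls, and Slc25a34 are the 2 that passed the test.

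Carriers of adenine nucleotides and phosphate, the most abundant group, gave no call among 7 tested of 8. Their median log2 fold change was 0.06. Slc25a4 had 3509 and 3336 CPM in the mutants, against 3418, 3341 and 3094 CPM in the controls, and the groups overlapped (log2 fold change 0.06 ± 0.08, SE; adjusted p = 0.748, edgeR). Slc25a3 had 1155 and 1097 CPM in the mutants, against 1124, 1123 and 1037 CPM in the controls, again with overlap (0.04 ± 0.08, SE; adjusted p = 0.829). Slc25a5 had 711 and 641 CPM in the mutants, against 574, 599 and 546 CPM in the controls. Here both mutants lay above all controls, yet the log2 fold change of 0.24 ± 0.08 (SE) had an adjusted p of 0.126 in edgeR and of 0.033 in DESeq2. Slc25a5 has 2 pseudogenes that match it over 400 or more bases, Gm5529 and Gm5560, and their counts came to 6.75% of its own, so a part of its reads may be split between them. Per 100 counts of Slc25a4 there were 20.3 and 19.2 counts of Slc25a5 in the mutants, against 16.8, 17.9 and 17.6 in the controls. That ratio was higher in both mutants than in all controls, by 0.18 on the log2 scale (exact permutation p = 0.1, the smallest possible; 0.4 adjusted over the 8 pairs).

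The ATP-Mg/phosphate carriers, which load or unload the adenine nucleotide pool of the matrix and are regulated by calcium, did not pass either. Slc25a23 had 109 and 95.4 CPM in the mutants, against 106, 102 and 99.7 CPM in the controls. Slc25a24 had 47.7 and 49.96 CPM in the mutants, against 43.5, 45.4 and 49.6 CPM in the controls. Slc25a25 had 19.1 and 18.5 CPM in the mutants, against 15.7, 16.7 and 16.8 CPM in the controls. Both mutants lay above all controls in Slc25a25, while Slc25a23 and Slc25a24 overlapped, with adjusted p-values from 0.224 to 0.970 (edgeR). Slc25a25 shares 379 exonic bases with Naif1 on the opposite strand; no source used here says if reads were counted by strand. Slc25a31, the ADP/ATP carrier of germ cells, was low, with 0.987 and 0.644 CPM in the mutants, against 1.63, 3.29 and 1.04 CPM in the controls. It was below all controls in both mutants, but control 4 stood far above the other two, and the log2 fold change of -1.28 ± 0.51 (SE) did not pass (adjusted p = 0.223).

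Among the carriers of carboxylic acids and of the redox shuttles, Slc25a13 rose and the other 6 tested of 8 did not pass. Slc25a11, the oxoglutarate carrier that works with the aspartate-glutamate carriers in the malate-aspartate shuttle, had 221 and 193 CPM in the mutants, against 210, 196 and 191 CPM in the controls. Slc25a1, which exports citrate for lipid synthesis, had 20.5 and 19.5 CPM in the mutants, against 19.6, 20.8 and 21.4 CPM in the controls. Both overlapped, at log2 fold changes of 0.05 and -0.04 (adjusted p = 0.771 and 0.820, edgeR). Slc25a11 shares 189 exonic bases with Rnf167 on the opposite strand. Slc25a18, a glutamate carrier, had 15 and 26 counts in the mutants, against 8, 1 and 2 counts in the controls. Both mutants were above all controls, but its log2 fold change of 2.18 ± 0.75 (SE), the largest of the family, did not pass (adjusted p = 0.136), and it rests on 52 counts in all. It shares 32 exonic bases with Atp6v1e1, a gene of 38896 counts on the opposite strand. The enzymes around these shuttles were read from a list of 20, of which 19 were tested. Gpd1, the cytosolic enzyme of the glycerol phosphate shuttle, Cpt1a, which makes acylcarnitines, and Ckb, a cytosolic creatine kinase, rose, 0 fell and 16 did not pass. Over all tested genes 3.02% rose and 3.57% fell. Gpd1 had 12.2 and 10.6 CPM in the mutants, against 7.29, 6.97 and 7.62 CPM in the controls (log2 fold change 0.64 ± 0.11, SE; adjusted p = 0.014, edgeR). Cpt1a had 68.1 and 65.0 CPM in the mutants, against 53.8, 52.5 and 52.3 CPM in the controls (0.33 ± 0.06, SE; adjusted p = 0.017). Ckb had 246 and 236 CPM in the mutants, against 183, 185 and 153 CPM in the controls (0.47 ± 0.09, SE; adjusted p = 0.018). In all 3 the mutants lay above every control. The list's median was 0.10, against 0.007 over all genes.

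**Figure D4:**
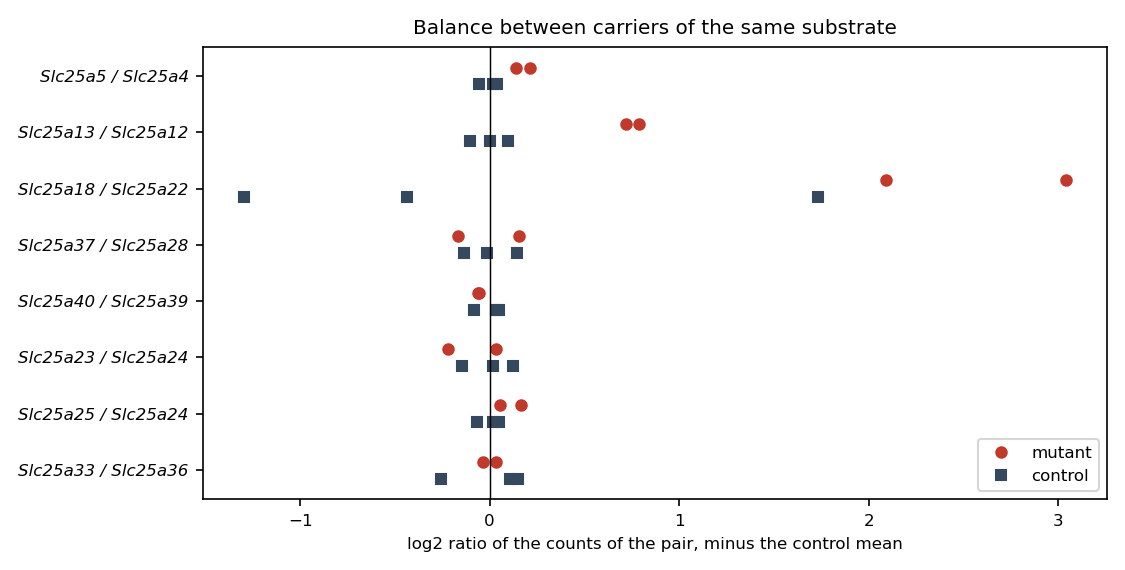
Log2 ratio of counts within 8 pairs of related carriers, each library shown as its difference from the control mean of that pair. The Slc25a13 to Slc25a12 ratio lay 0.75 higher in the mutants on average and that of Slc25a5 to Slc25a4 0.18 higher, both without overlap. The ratios of Slc25a25 to Slc25a24, 0.11 higher, and of Slc25a18 to Slc25a22 were also higher without overlap. The Slc25a18 to Slc25a22 ratio rests on few counts and spread widely.

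The acylcarnitine carrier and its uncoupling-protein-like relatives gave no call among 4 tested. Slc25a20 brings acylcarnitines into the matrix for fatty acid oxidation, and had 68.9 and 51.5 CPM in the mutants, against 69.4, 60.2 and 68.9 CPM in the controls. The 2 mutants stood apart from each other, with mutant 7 below all controls and mutant 5 within their range (log2 fold change -0.14 ± 0.13, SE; adjusted p = 0.631, edgeR). The other 3 had log2 fold changes of -0.42 to 0.12. Slc25a14, an uncoupling-protein-like carrier named after its values were seen, had 5.39 and 4.91 CPM in the mutants, against 7.72, 6.84 and 6.11 CPM in the controls. Both mutants lay below all controls, but the log2 fold change of -0.42 ± 0.14 (SE) had an adjusted p of 0.137 (edgeR). Carriers listed under other symbols in the table, which the symbol rule leaves out, were 8 genes with 5 tested, and 0 passed. Ucp2, a carrier of the uncoupling protein branch, is named after its values were seen. It had 86.6 and 64.7 CPM in the mutants, against 161, 167 and 119 CPM in the controls, with both mutants below all controls, and missed the threshold (log2 fold change -0.98 ± 0.21, SE; adjusted p = 0.064, edgeR). Of a list of 12 brown fat genes, Ucp1, the uncoupling protein of that tissue, and Elovl3, Adipoq, Plin1, Lep and Cidec were at 0.119 CPM or less in every library. Of the 6 tested, Cidea rose, with 10.9 CPM in each mutant, against 8.12, 7.04 and 6.74 CPM in the controls (log2 fold change 0.57 ± 0.12, SE; adjusted p = 0.026, edgeR). Cox7a1 and Cox8b fell, and Prdm16, Dio2 and Fabp4, the last at 150 to 191 CPM, did not pass. The summed level of the list, which also holds genes of heart muscle such as Cox7a1, was 391 to 410 CPM in the mutants and 429 to 498 CPM in the controls.

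Carriers of amino acids gave no call among 4 tested of 5, all with log2 fold changes within 0.3 of 0. Slc25a38, which brings in glycine for heme synthesis, had 18.5 and 16.8 CPM in the mutants, against 18.3, 17.5 and 18.3 CPM in the controls, with overlap (log2 fold change -0.03 ± 0.08, SE; adjusted p = 0.902, edgeR).

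Carriers of cofactors, metals and pyrimidine nucleotides were the largest group, with 12 members, all tested, and 0 passed. All 12 log2 fold changes lay within 0.3 of 0 and 9 were positive, with a median of 0.08. Slc25a39, needed for glutathione in mitochondria, had 193 and 173 CPM in the mutants, against 153, 166 and 149 CPM in the controls. Both mutants lay above all controls, but the log2 fold change of 0.23 ± 0.08 (SE) had an adjusted p of 0.129 (edgeR). Slc25a42, which carries coenzyme A, had 29.8 and 24.5 CPM in the mutants, against 23.0, 22.5 and 24.6 CPM in the controls, and mutant 7 lay just below control 6. Neither iron carrier passed. Slc25a28, or mitoferrin 2, had 20.1 and 19.1 CPM in the mutants, against 18.3, 19.8 and 18.2 CPM in the controls. Slc25a37, or mitoferrin 1, which supplies iron in red cell precursors, had 20.3 and 24.1 CPM in the mutants, against 19.0, 22.3 and 22.9 CPM in the controls. Both overlapped, with adjusted p-values of 0.754 and 0.845 (edgeR). The summed level of the erythroid genes was 1755 to 1790 CPM in the mutants and 1117 to 1463 CPM in the controls. Of its 12 tested genes Hba-a1, an alpha globin, rose and 0 fell, and the part of blood in the carriers' levels was not tested. Of all tested genes, 3.02% rose and 3.57% fell. Around the heme and iron carriers, a list of 17 genes with 16 tested held 2 that rose and 0 that fell. They were Cpox, an enzyme of heme synthesis (log2 fold change 0.40 ± 0.07, SE; adjusted p = 0.013), and Tfrc, the transferrin receptor (0.32 ± 0.07, SE; adjusted p = 0.028).

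The members whose substrate was not assigned here were 7, all with positive log2 fold changes, a median of 0.29 and 1 call, Slc25a34. Slc25a43 came nearest to the threshold among the members that did not pass. It lies on the X chromosome, at X:34283739-34317197 in mm9, and had 1.65 and 1.93 CPM in the mutants, against 0.746, 1.18 and 0.861 CPM in the controls. The mutants lay above all controls, each group held libraries of both sexes, and the log2 fold change was 0.95 ± 0.26 (SE; adjusted p = 0.073 in edgeR and 0.039 in DESeq2). In the authors' deposited table, the adjusted p was 0.0389 for Slc25a43, 0.0024 for Slc25a34 and 1.13e-10 for Slc25a13. There it was 0.185 for Slc25a5, and 0.168 or more for every other member. Slc25a5 follows Slc25a43 on the chromosome, with 18.5 kb between them, and these are 1 of 3 pairs of members that are next to each other.

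Companion lists of mitochondrial transport and respiration were read beside all tested genes, of which 6.58% passed, 3.02% higher and 3.57% lower. The counts of the respiratory chain list lay near these shares. Of 8 genes, for porins, the pyruvate carrier, the calcium uniporter with its regulator, and the matrix cyclophilin Ppif, 0 passed, with a median log2 fold change of 0.08, and of 13 genes that import carrier proteins into the inner membrane 0 passed, with a median of 0.07. Among 17 nuclear receptors, coregulators and transcription factors of mitochondrial genes, Ppargc1b, a coactivator of mitochondrial genes, rose (log2 fold change 0.64 ± 0.13, SE; adjusted p = 0.025, edgeR), 0 fell and 16 did not pass. Of 83 tested genes with symbols of respiratory chain subunits, 2 rose, 3 fell and 78 did not pass, with a median of 0.04; Cox4nb, Atp5s and Atp5sl, which are no subunits, share such symbols and are counted in. Sdhb, a subunit of complex II, and Cox6a1, the widely expressed form of a subunit of complex IV, rose by 0.37 ± 0.08 and 0.39 ± 0.08 on the log2 scale (SE; adjusted p = 0.036 and 0.025, edgeR). The 3 that fell are forms of complex IV subunits known from heart and muscle. Cox6a2 fell to 488 and 471 CPM in the mutants, against 666, 658 and 605 CPM in the controls, and its log2 fold change was -0.42 ± 0.08 (SE; adjusted p = 0.015). Cox8b and Cox7a1 had log2 fold changes of -0.56 ± 0.08 and -0.39 ± 0.07 (SE; adjusted p = 0.0068 and 0.018).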

How the data were processed

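RNA of 5 libraries was analysed from the gene counts as the authors deposited them. Per the submitters' processing notes, mm9 was the genome build; TopHat2 2.0.4, HTSeq 0.5.4p3 and DESeq are named there without their roles, and strand use in counting is not stated. The authors also deposited RPKM values pooled to 1 value a group, their log2 ratios and their p-values with adjusted p-values, which were used as a description only. The no_feature and ambiguous entries, 3.97% to 6.03% and 2.31% to 3.18% of all counts, were left out of totals and tests, and the entry for reads with several positions is listed at 0.

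Counts were tested with edgeR 4.0.16 in R 4.3.3 (quasi-likelihood, robust fit, two-sided, TMM scaling) after filterByExpr at its defaults (count 10, total 15). The fit was tested on simulated data. CPM was computed from the deposited counts with TMM-scaled totals. DESeq2 1.42.0, limma-voom (limma 3.58.1), other scalings, filters and thresholds and leaving out each library were tried. Libraries of 1 group had Spearman correlations over all genes of 0.992 to 0.994, and none differed by as little as counting error.

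The members, role lists and companion and marker lists were chosen with earlier results of these data known. Values per library are given for members that passed the test, for 16 members set by name and for the 5 with the largest absolute log2 fold change, and other members by counts and ranges. Copies and shared exons were looked up in GENCODE vM21, and promoters in RefSeq.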

Additional observations from a re-analysis of the deposited data

How the results depend on the processing

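For 27 of 41 tested members, no sign or call changed under any of the 13 alternatives that gave a value for them. Slc25a13 was called in each, also at a threshold of 0.01, at log2 fold changes of 0.79 to 0.86 and a highest adjusted p of 0.0068. Slc25a34 lost its call under 4, which are the 3 left-out libraries named above and a threshold of 0.01. Slc25a34, Slc25a18 and Slc25a48 were not tested with a filter of 1 CPM in 2 libraries, and DESeq2 gave the last 2 no adjusted p. Slc25a43 was called with no filter (adjusted p = 0.044) and by DESeq2, and Slc25a5 by DESeq2. Members called higher were 1 with that filter, 1 at a threshold of 0.01, 4 with DESeq2 and 1 to 2 with a library left out; 0 were lower in each. Over all genes, DESeq2 called 960 higher and 1044 lower and a threshold of 0.01 left 157 higher and 234 lower. With a library left out, 203 to 910 were higher and 306 to 804 lower. With library totals alone the members' median was 0.041 and that of all genes -0.029. No call was involved in the 11 members whose sign turned. With library totals alone Slc25a15 stood at -0.0059. With a library left out the log2 fold changes ran from -0.0465 to 0.143 for Slc25a11, -0.0820 to 0.127 for Slc25a15, -0.362 to 0.0538 for Slc25a20, -0.104 to 0.0770 for Slc25a23, -0.152 to 0.0086 for Slc25a26, -0.232 to 0.0782 for Slc25a29, -0.147 to 0.232 for Slc25a32, -0.0814 to 0.172 for Slc25a37, -0.0989 to 0.0357 for Slc25a38, -0.126 to 0.0303 for Slc25a44 and -0.0224 to 0.0869 for Slc25a46. The causes were not tested. No paired analysis was possible because the groups share no replicate number.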
